A study of Mus musculus with 19 samples.

Results

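This comparison is of the skin of mice with early-stage basal cell carcinoma (BCC) that had been treated with topical vismodegib against induced BCC skin that had not been treated. Its members are 8 of the study's 16 mice, chosen by treatment label alone: 4 vismodegib mice (numbers 1, 6, 9 and 12, with 5 libraries because mouse 12 gave 2) and 4 BCC mice (numbers 3, 4, 5 and 8, with 4 libraries). Messenger RNA from whole skin was sequenced, and the deposited table holds expected counts for 18521 genes. All 15760 genes that passed the filter on low counts were tested. The question is what a few days of the drug changed in skin that carried these tumours.

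All mice were female and carried the alleles Ptch1+/- K14-CreER2 p53fl/fl. They thus have only 1 intact copy of Ptch1 in all their cells. They also carry a tamoxifen-activated Cre that is driven by the keratin 14 promoter, which is active in basal keratinocytes. Tamoxifen thus deletes p53 in those cells and in the cells that descend from them, and mice without tamoxifen keep it. BCC, vismodegib and laser-treated mice had received 3 injections of 300 µg tamoxifen and 1 x-ray dose of 4 Gy. The vismodegib mice were then given 8 applications at 2 a day and were sampled on day 4, at 268 to 326 days of age and 109 to 137 days after induction. The BCC mice were sampled at 278 to 320 days of age and 130 to 144 days after induction. No vehicle-treated mice were among the groups, so the drug cannot be told apart from its formulation or from the handling of the skin. For background, 3 induced mice treated once with an ablative fractional laser (AFL, 228 to 326 days of age and 80 to 126 days after induction) and 5 younger mice that were not induced (healthy, 128 to 137 days of age) were in the same fit.

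In the Hedgehog pathway, a secreted ligand such as SHH binds the receptor Patched 1 (PTCH1), which otherwise holds the membrane protein Smoothened (SMO) inactive. Active SMO lets the GLI transcription factors switch on target genes, which include Gli1, Ptch1 and Hhip, so that the level of these messengers is used as a readout of the pathway. BCC is the skin tumour in which this pathway is switched on by loss of PTCH1 or gain of SMO function, and vismodegib is a small molecule that binds and inhibits SMO.

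Summed counts were 31733086 to 33319078 per vismodegib library and 27185921 to 33229831 per BCC library. The 2 libraries of mouse 12 were summed, and they differed by more than 1.5-fold in 12.4% of 13808 genes. Trp53, the floxed gene, stood at 26.8, 53.2, 25.3 and 55.1 CPM (counts scaled to a common library size by TMM) in vismodegib mice 1, 6, 9 and 12 and at 31.5, 27.6, 23.6 and 36.3 in BCC mice 3, 4, 5 and 8. It stood at 94 to 143 in the healthy mice, above each induced mouse of both groups. The 2 libraries of mouse 12, numbers 4 and 5, differed widely in several genes below, here in CPM by library total alone. Shh stood at 8.07 and 0.332, Ptch1 at 88.3 and 26.5, and Gli1 at 89.4 and 29.5. Hhip stood at 7.09 and 1.63, Mycn at 14.2 and 3.23, and Myh3 at 0.126 and 7.69. Smo (123 and 108) and Spop (186 and 189) were closer. With library 5 alone Ptch1 was called, and with library 4 alone Mycn was not. The calls of Gli1 and Hhip were kept either way. The 30 genes of growing hair follicles separated 1 mouse of each group from the rest: their mean log2 CPM was 7.7 in vismodegib mouse 6 and 7.9 in BCC mouse 3, against 0.0 to 0.6 in the other vismodegib mice and 0.7 to 2.6 in the other BCC mice. None of these 30 genes was called between the groups (median log2 fold change -0.12). Without vismodegib mouse 6, 6 of them fell, without BCC mouse 3, 1 rose, and without both mice 1 fell. The labels number each library as a biological replicate, mouse 12 carrying numbers 4 and 5, and name 8 separate mice in the 2 groups.

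Vismodegib skin differed from BCC skin in 2684 genes at a Benjamini-Hochberg adjusted p below 0.05 in edgeR's quasi-likelihood test. Of all genes tested 8.03% rose (1266) and 9% fell (1418), or 17% in either direction, with a median log2 fold change over all genes of 0.05. The mice of the 2 groups did not overlap for 2580 genes, 16.4% of those tested. The calls were large as well as many, since 832 rises and 1161 falls were at least 2-fold. With the libraries scaled by their total alone, in place of the trimmed mean of M-values (TMM), the median of all genes moved from 0.05 to -0.30 and the calls were 440 rises and 2164 falls. The split between rises and falls therefore depends on the scaling, and small changes below are relative to the TMM scale. Without vismodegib mouse 6 and BCC mouse 3, the mice with growing hair, the calls were 1668 rises and 1777 falls. With age as a covariate 31.7% of the calls were kept, and in a fit of the 8 mice alone 36.4%. The fit with age, here and below, left out the healthy mice. No fit of those mice without a covariate was made, so the covariate and the smaller fit cannot be told apart. With days since induction in place of age, in the same mice, 51.2% of the calls were kept. The number of rises fell to 524 without BCC mouse 8, to 716 without BCC mouse 4, to 776 without BCC mouse 5 and to 762 without vismodegib mouse 9.

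**Figure D1:**
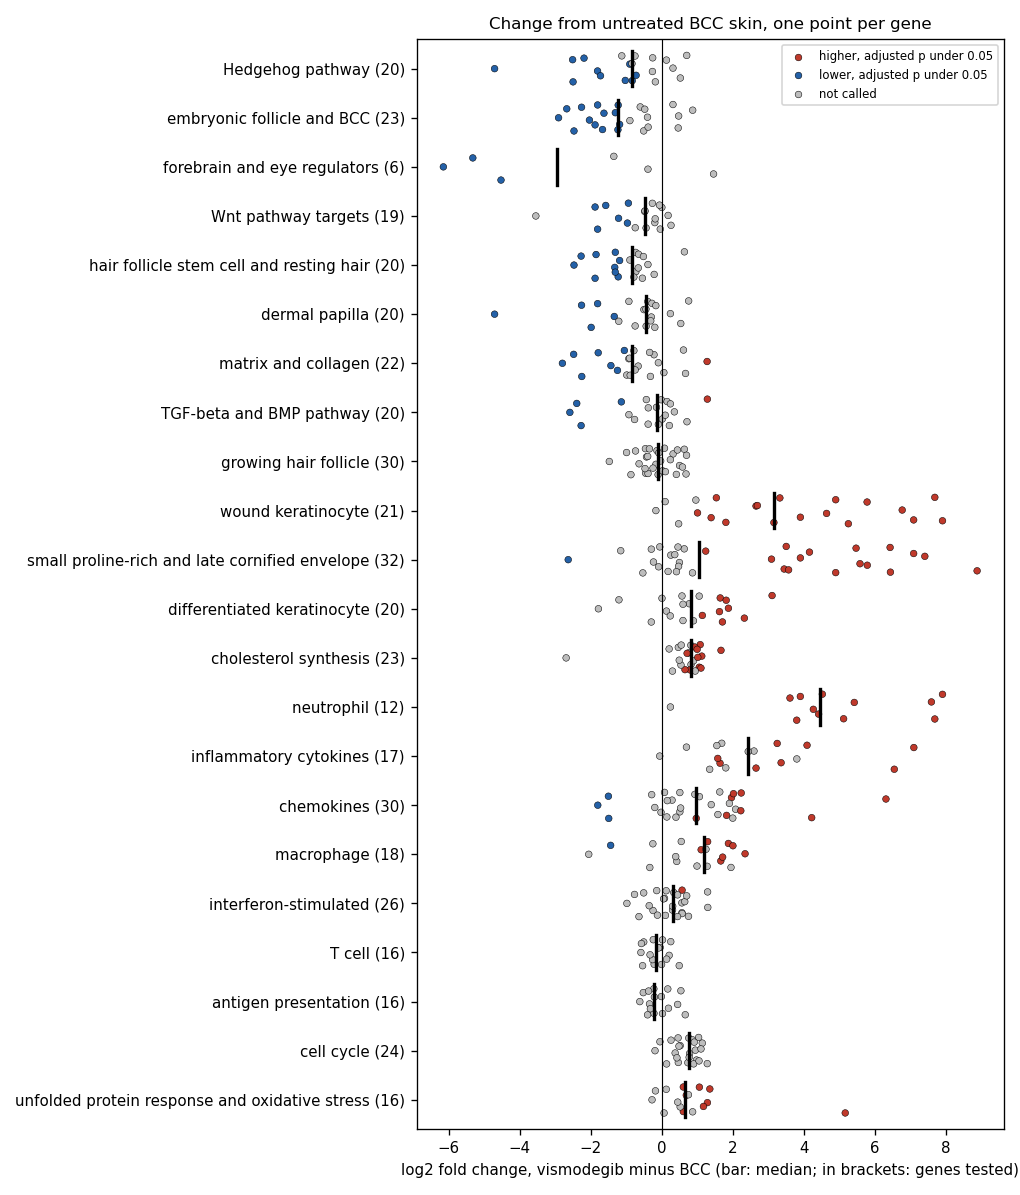
Log2 fold change of each tested gene (1 point per gene) in vismodegib skin against BCC skin, by gene list, with a bar at the median of each list and the number of genes tested in brackets. Red and blue points passed an adjusted p of 0.05 upwards and downwards, and the Hedgehog pathway list holds 10 blue points and no red one while the wound keratinocyte list holds 17 red points and no blue one.

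Of the 20 listed members of the Hedgehog pathway 10 fell, among them Hhip, Gli2, Gli1, Kif7, Gpr161, Smo, Cdon, Boc and Mycn, none rose, and the list's median log2 fold change was -0.83 beside 0.05 over all genes, where 9% of genes fell. The count was 10 also without the growing-hair mice, but 6 without BCC mouse 8, 5 without vismodegib mouse 9, 5 with age as a covariate and 5 in the fit of the 8 mice. In whole skin, fewer cells that express a gene and less of its RNA per cell cannot be told apart, here or for any gene that follows.

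The ligands were low. Shh, the ligand that growing hair follicles make, stood at 0, 16.5, 1.65 and 4.2 CPM in vismodegib mice 1, 6, 9 and 12 and at 15.9, 1.15, 0.715 and 0.218 in BCC mice 3, 4, 5 and 8, in the same mouse order as in every sentence that follows (log2 fold change 0.32, adjusted p = 0.893). The highest mouse of each group was the one with growing hair. Ihh and Dhh, the other two ligands, ranged over 0.159 to 0.335 CPM in the vismodegib mice and 0.0882 to 0.319 in the BCC mice for Ihh (log2 fold change 0.52, adjusted p = 0.429) and over 1.06 to 3.69 CPM in the vismodegib mice and 0.941 to 1.72 in the BCC mice for Dhh (log2 fold change 0.7, adjusted p = 0.229). Hhat, the enzyme that attaches palmitate to the ligands (log2 fold change -0.84, adjusted p = 0.0745), and Disp1, which releases them from the cell (log2 fold change -0.75, adjusted p = 0.112), did not pass the test.

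Among receptors and co-receptors, Hhip, a membrane protein that binds and sequesters the ligands and is itself induced by the pathway, fell most. It stood at 2.87, 5.17, 3.08 and 4.39 CPM in the vismodegib mice and 34.1, 137, 162 and 74.2 in the BCC mice (log2 fold change -4.71, SE 0.57, adjusted p = 0.000207). All 4 treated mice were below the lowest BCC mouse. They were also below the AFL mice, at 34.7, 8.32 and 9.28 CPM in mice 2, 7 and 11 (log2 difference -2.16, adjusted p = 0.0205). Ptch1 stood at 29, 74.2, 29.7 and 57.8 against 100.5, 122, 125 and 68.6 CPM and did not pass the test (log2 fold change -1.13, SE 0.41, adjusted p = 0.0706), with vismodegib mouse 6 above BCC mouse 8. It was called under 5 of the 23 other settings, among them the fit without vismodegib mouse 6 and DESeq2. Counts do not separate the intact Ptch1 allele from the other one.

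Smo, the protein that vismodegib binds, stood at 120.4, 147, 59.7 and 118 against 240.3, 179.7, 162 and 208 CPM (log2 fold change -0.83, SE 0.24, adjusted p = 0.0288). Smo lost its call without BCC mouse 3 or 8 or without vismodegib mouse 9 (log2 fold changes -0.85 to -0.61) and under 3 of the 15 other settings. Boc (16.1 to 41.2 CPM in the vismodegib mice and 48.9 to 72.5 in the BCC mice, log2 fold change -0.9, adjusted p = 0.0303) and Cdon (18.6 to 33.2 CPM in the vismodegib mice and 27.4 to 62.2 in the BCC mice, log2 fold change -1.03, adjusted p = 0.0299) encode cell-surface co-receptors for the ligand. The call of Boc was lost without BCC mouse 3 or 8 or without vismodegib mouse 9 (log2 fold changes -0.89 to -0.65) and under 3 of the 15 other settings. Cdon lost its call without BCC mouse 4, 5 or 8 or without vismodegib mouse 1, 6 or 9 (log2 fold changes -1.06 to -0.89) and under 4 of the 15 other settings. Gas1, the third co-receptor, ranged over 117 to 158 CPM in the vismodegib mice and 149.8 to 186 in the BCC mice and did not pass the test (log2 fold change -0.26, adjusted p = 0.369).

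Among the transducers, Gli1, the activator that is also a target of the pathway, stood at 25.3, 101, 22.4 and 59.95 CPM in the vismodegib mice and 302, 307, 314 and 258 in the BCC mice (log2 fold change -2.5, SE 0.48, adjusted p = 0.00294). Gli2, the main activator upstream of Gli1, stood at 30.2, 52.4, 14.9 and 35.8 against 141, 111, 89.9 and 125 CPM (log2 fold change -1.81, SE 0.31, adjusted p = 0.0017). Every treated mouse was below every BCC mouse for both genes, and vismodegib mouse 6 was the highest treated mouse for both. Gli3, which acts mostly as a repressor, stood at 10.7, 39.4, 13.9 and 14.9 against 27.3, 25.1, 23.7 and 18.1 CPM, with overlapping groups (log2 fold change -0.25, adjusted p = 0.69). Kif7, a kinesin at the tip of the primary cilium that regulates GLI proteins, stood at 5.94, 14.3, 3.66 and 7.36 against 31.1, 23.3, 23 and 26.1 (log2 fold change -1.73, SE 0.34, adjusted p = 0.00339).

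Gpr161, a ciliary receptor that restrains the pathway, ranged over 16.9 to 28.6 CPM in the vismodegib mice and 32.7 to 45 in the BCC mice (log2 fold change -0.72, adjusted p = 0.0235). Gpr161 lost its call without BCC mouse 5 or without vismodegib mouse 9 or 12 (log2 fold changes -0.69 to -0.59) and under 3 of the 15 other settings. Sufu, which holds GLI proteins in the cytoplasm (log2 fold change -0.18, adjusted p = 0.646), and Spop, which targets them for degradation (log2 fold change 0.13, adjusted p = 0.637), did not pass the test. Mycn, a growth regulator that the pathway induces, stood at 1.64, 30.8, 5.95 and 8.74 against 67.8, 55.1, 42.1 and 50.4 CPM (log2 fold change -2.19, SE 0.7, adjusted p = 0.0432), with vismodegib mouse 6 nearest to the BCC mice (-3.3 without it). That call was lost without BCC mouse 3, 4, 5 or 8 or without vismodegib mouse 1, 9 or 12 (log2 fold changes -2.3 to -1.83) and under 6 of the 15 other settings.

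**Figure D2:**
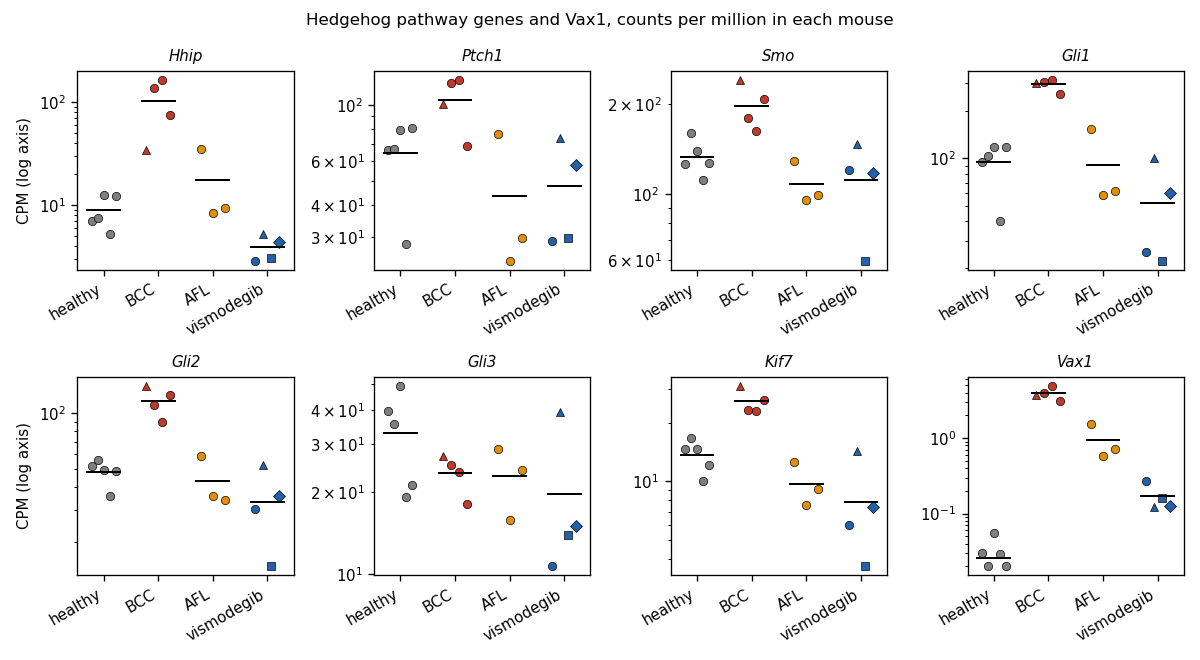
CPM on log axes in each mouse of the 4 groups for 7 genes of the Hedgehog pathway and for Vax1; black bars are group means, triangles are the mice with growing hair (vismodegib mouse 6, BCC mouse 3), the square is vismodegib mouse 9, the diamond vismodegib mouse 12, and values under 0.02 are drawn at 0.02. The vismodegib mice lie below all BCC mice for Hhip, Smo, Gli1, Gli2, Kif7 and Vax1, and overlap them for Ptch1 and Gli3.

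Of the 20 pathway genes, 16 matched a promoter window in RefSeq (GRCm38.p6), and the 250 bases before the start were searched on both strands for ACCACCC, the core of the letters that GLI proteins recognise. Gli2 alone held it, beginning 205 bases before the start. It is shown because Gli2, which kept its call under every setting, holds the letters. The window is chr1:119053620-119053869 on the minus strand of GRCm38.p6, printed 5′ to 3′ with the match, which lies on the opposite strand, in capitals.
Gli2: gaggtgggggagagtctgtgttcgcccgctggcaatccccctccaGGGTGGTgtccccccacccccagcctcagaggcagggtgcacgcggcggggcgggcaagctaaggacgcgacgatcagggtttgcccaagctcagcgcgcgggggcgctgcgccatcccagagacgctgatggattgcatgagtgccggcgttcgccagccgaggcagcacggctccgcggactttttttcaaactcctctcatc
The letters were held by 3.86% of 27025 promoters of this length in the table and by 4.1% of those of genes tested. They were held by 3.93% of those of genes that fell and by 4.58% of those of genes that rose. A match is a run of letters and not a measured binding site, and a window without one says nothing about GLI binding at that gene.

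Against healthy skin, the treated mice were not called different for any of Hhip (log2 difference -1.19, adjusted p = 0.108), Gli1 (log2 difference -0.86, adjusted p = 0.188) or Gli2 (log2 difference -0.53, adjusted p = 0.214). Missing the threshold does not show that the levels were alike. Disp1 was the pathway gene called below healthy skin (log2 difference -1.09, adjusted p = 0.0323), as 4.07% of all genes were. Against laser-treated skin, which is the test of the difference between the 2 treatments' changes from the shared BCC mice, Hhip and Cdon were lower after vismodegib, beside 6.69% of all genes. The other 18 pathway genes were not called. Against BCC skin, 3 of the 20 pathway genes fell after the laser (median -0.69) and 10 after vismodegib (median -0.83).

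Genes of embryonic hair placodes, follicle stem cells and BCC also fell. Of 23 genes of this list 13 fell (56.5%, beside 9% of all genes) and none rose (median -1.23). The count was 13 without the growing-hair mice, 8 without BCC mouse 4, 7 without vismodegib mouse 1, 6 without vismodegib mouse 9 and 8 without vismodegib mouse 12. It was 4 with age as a covariate and 6 in the fit of the 8 mice. Lhx2, a transcription factor of follicle stem cells, stood at 25.3, 70.5, 26.3 and 41.5 against 200.3, 311, 152 and 246 CPM (log2 fold change -2.47, SE 0.34, adjusted p = 0.000482). Lgr6, which marks a stem cell population of the upper follicle, stood at 24.6, 17.7, 7.33 and 19.7 against 99.7, 68.3, 85.3 and 79.5 (log2 fold change -2.26, SE 0.33, adjusted p = 0.000626). Foxi3, a regulator of the hair placode, stood at 3.45, 2.04, 1.96 and 4.87 against 21.2, 17, 17.6 and 23.5 (log2 fold change -2.68, SE 0.56, adjusted p = 0.00531). The groups did not overlap for any of the 3 genes. The lowest treated mouse was number 1 for Lhx2 and number 9 for the other 2. Sox9, a follicle regulator listed here too, ranged over 37.2 to 117 CPM in the vismodegib mice and 148 to 173 in the BCC mice (log2 fold change -1.23, adjusted p = 0.0203).

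The list of follicle stem cell and resting hair genes, which shares members with the one before, held 9 falls and no rise among 20 (median -0.84). The share was 45%, beside 9% of all genes. There were 8 falls without the growing-hair mice, 5 without vismodegib mouse 9, 3 with age as a covariate and 4 in the fit of the 8 mice. Bmp6, a signal that keeps stem cells quiescent, stood at 6.32, 9.31, 3.88 and 4.87 against 38.5, 32.6, 24.2 and 22.6 CPM (log2 fold change -2.27, SE 0.33, adjusted p = 0.000557). Lrig1, a marker of upper-follicle stem cells that restrains EGF receptor signalling, stood at 159, 237, 70.3 and 135 against 588, 523, 525 and 531 (log2 fold change -1.85, SE 0.33, adjusted p = 0.00201). The 4 BCC mice were close to each other for Lrig1, and every treated mouse was well below them.

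Wnt pathway targets held 6 falls (31.6%, beside 9% of all genes) and no rise among 19 (median -0.47). The falls numbered 2 without BCC mouse 3, vismodegib mouse 1 or vismodegib mouse 9, and 3 without vismodegib mouse 12. With age as a covariate 1 fell, and in the fit of the 8 mice 2. Lgr5, a Wnt-responsive receptor of follicle stem cells, stood at 29.3, 74.5, 20.9 and 29.6 against 70.4, 143, 226 and 129 CPM (log2 fold change -1.88, SE 0.43, adjusted p = 0.00832), with vismodegib mouse 6 above BCC mouse 3. Its call was lost under 2 of the 15 other settings. Dkk2, a Wnt antagonist (log2 fold change -1.58, adjusted p = 0.0213), and Apcdd1, another (log2 fold change -0.97, adjusted p = 0.0279), fell as well. The call of Dkk2 was lost without BCC mouse 5 (log2 fold change -1.25) and under 3 of the 15 other settings. Apcdd1 lost its call without BCC mouse 3 or 8 or without vismodegib mouse 1 or 9 (log2 fold changes -0.95 to -0.79) and under 2 of the 15 other settings. Of 20 genes of the dermal papilla, the fibroblast cluster that instructs the follicle, 5 fell (25%, beside 9% of all genes) and none rose. The 5 were Hhip, Alx4, Ndp (log2 fold change -1.99), Wif1 and Sox18. The falls numbered 2 without BCC mouse 4 or vismodegib mouse 1, and 3 without vismodegib mouse 9. There were 2 with age as a covariate or in the fit of the 8 mice. Ndp lost its call without BCC mouse 4 or without vismodegib mouse 1 (log2 fold changes -1.75 to -1.31) and under 4 of the 15 other settings. Alx4, a homeobox gene, stood at 1.47, 9.31, 3.93 and 10.5 against 21.4, 51.7, 22.1 and 26.4 CPM (log2 fold change -2.26, SE 0.56, adjusted p = 0.0131). Alx4 lost its call under 2 of the 15 other settings.

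Regulators of the embryonic forebrain and eye, which are best known outside the skin, were measured at low levels in BCC skin. Of 12 listed genes in the file 6 passed the filter, and 3 of these fell (50%, beside 9% of all genes). A gene can pass that filter through the mice of 1 group alone, which favours falls among genes near 0 in treated skin. Vax1, a homeobox gene of the optic stalk, stood at 0.273, 0.122, 0.159 and 0.126 CPM in the vismodegib mice and 3.74, 3.94, 4.97 and 3.08 in the BCC mice (log2 fold change -4.53, SE 0.49, adjusted p = 0.000128). It was at 0 to 0.0552 in the healthy mice, and the treated mice lay between the healthy and the BCC mice, above the former (log2 difference 2.61, adjusted p = 0.00865) and below the AFL mice (log2 difference -2.46, adjusted p = 0.00547). Barhl2, a homeobox gene of the retina and diencephalon, had 3 counts over all vismodegib libraries, and its level in BCC skin was 87.0 times as high (95% Poisson interval 29.4 to 425, counting error only), or 35.0 times without BCC mouse 4. Six3, which patterns the eye field, stood at 0, 0.0609, 0.106 and 0 against 1.01, 0.323, 1.09 and 3.13 CPM (log2 fold change -5.32, SE 1.31, adjusted p = 0.0187). Barhl2 had a fitted log2 fold change of -6.15, and -4.84 without BCC mouse 4, -7.21 without vismodegib mouse 1 and -5.52 without vismodegib mouse 12. Six3 was at -4.58 without BCC mouse 8, -6.1 without vismodegib mouse 9 and -4.68 without vismodegib mouse 12.

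Among the 10 largest falls, the other genes were likewise low in treated skin, and the same limit of the filter holds for them. Opn4, the photopigment melanopsin, had 0 counts in every vismodegib library and 0.261, 1.91, 1.52 and 0.572 CPM in the BCC mice, so BCC skin held at least 50.5-fold more, computed against 3 counts over the group. Cckar, a receptor for cholecystokinin, stood at 0.410, 0.213, 0.212 and 0.267 against 8.52, 15.2, 14.7 and 28.6 CPM (log2 fold change -5.9, SE 0.86, adjusted p = 0.000626). Fam163b stood at 0.444, 0.517, 0.584 and 2.14 against 29.6, 24.8, 17.2 and 77.6 (log2 fold change -5.29, SE 0.91, adjusted p = 0.00169). These 2 were also the falls with the highest BCC levels of the 10. Zscan10, a zinc finger gene of pluripotent cells, Gckr, the regulator of glucokinase, and Fam155a, an accessory protein of the sodium leak channel, were under 0.2 CPM in every treated mouse, with BCC mice at 0.232, 2.76, 0.342 and 1.99, 0.463, 0.882, 2.49 and 0.681 and 0.406, 6.38, 2.46 and 3.3 CPM. Kcnip1, a potassium channel subunit (log2 fold change -5.18, SE 1.3, adjusted p = 0.0144), lost its call without BCC mouse 4 (log2 fold change -3.73), and BCC mouse 4 was the mouse in which it was highest. Hamp2, a hepcidin gene (log2 fold change -5.51, SE 1.46, adjusted p = 0.02), lost its call without BCC mouse 8 or without vismodegib mouse 9 or 12 (log2 fold changes -5.31 to -4.75) and under 2 of the 15 other settings. On the log2 scale Zscan10 was -5.5, or -6.36 without vismodegib mouse 12. Fam155a was -5.21, or -4.61 without BCC mouse 4, and Gckr -5.12, or -4.41 without BCC mouse 5. Without the single treated mouse in which it was highest, the fall was larger for Fam163b (-6.18 without mouse 12), Hamp2 (-7.3 without mouse 1) and Kcnip1 (-6.26 without mouse 9).

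Matrix genes fell where they were called, with 1 exception. Of 22 listed matrix and collagen genes 7 fell (Col14a1, Col1a1, Col1a2, Col5a1, Col6a3, Sparc and Eln) and 1 rose, at a median of -0.84. The falls were 31.8% of the list, beside 9% of all genes. They numbered 4 without BCC mouse 4, vismodegib mouse 1 or vismodegib mouse 9 and in the fit of the 8 mice. Col1a1, a chain of type I collagen, stood at 317, 583, 307 and 752 CPM in the vismodegib mice and 1861, 6145, 1111 and 4520.1 in the BCC mice (log2 fold change -2.8, SE 0.55, adjusted p = 0.00368). Col14a1, a collagen that associates with fibrils, stood at 27.3, 56.7, 59.6 and 74.4 against 161, 585, 213 and 259 (log2 fold change -2.48, SE 0.46, adjusted p = 0.0026). The BCC mice spread over several-fold, and the treated mice were below the lowest of them for both. Tnc, tenascin C, a matrix protein of wounds and tumour stroma, was the exception (log2 fold change 1.28, SE 0.42, adjusted p = 0.0459). The rise of Tnc was not called when any one of BCC mice 4, 5 and 8 or vismodegib mice 1, 9 and 12 was left out. Mmp14, a membrane-bound collagenase, fell (153 to 174 CPM in the vismodegib mice and 267 to 575 in the BCC mice, log2 fold change -1.2, adjusted p = 0.00315). Timp1, an inhibitor of such proteases, rose from 11.9, 30.6, 11.3 and 7.74 to 61.7, 44.4, 405 and 132 CPM (log2 fold change 3.38, SE 0.73, adjusted p = 0.00655), highest in mouse 9 and at 2.39 without it. Timp1 lost its call with age as a covariate.

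Of the TGF-beta ligands, signals that act on epidermis and matrix cells, Tgfb2 and Tgfb3 fell. Of 20 genes of the TGF-beta and BMP pathway 4 fell (20%, beside 9% of all genes) and 1 rose (Id1), with a median of -0.12. Tgfb2 stood at 14.5, 9.71, 12.4 and 9.53 against 43.9, 69.3, 102 and 62.6 CPM (log2 fold change -2.59, SE 0.37, adjusted p = 0.000541), and Tgfb3 at 20.7, 17.3, 20.9 and 26.6 against 100.2, 138, 80.3 and 131 (log2 fold change -2.39, SE 0.27, adjusted p = 0.000138). Both were lower than in laser-treated skin as well (log2 difference -1.6, adjusted p = 0.0149 for Tgfb2 and log2 difference -1.61, adjusted p = 0.00223 for Tgfb3). Ncam1, a neural adhesion molecule also made in follicle mesenchyme, stood at 17, 9.53, 9.45 and 10.2 against 44.6, 90.3, 87.1 and 57.2 CPM (log2 fold change -2.6, SE 0.31, adjusted p = 0.000192), and Cspg4, a proteoglycan of pericytes and stem cells, at 58.2, 84.6, 30.1 and 57.5 against 260.0, 280.1, 114 and 265 (log2 fold change -2.0, SE 0.32, adjusted p = 0.00102). Each belongs to a list with 2 falls. Of 15 genes of nerve and Schwann cells 2 fell (Ncam1 and Ngfr, the latter at -1.68, or -2.38 without vismodegib mouse 6). Of 15 of smooth muscle and pericytes 2 fell (Cspg4 and Itga8). The share was 13.3% in each list, beside 9% of all genes.

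Small proline-rich (SPRR) and late cornified envelope (LCE) proteins are cross-linked under the membrane of dying keratinocytes to form the barrier of the skin, and some of them are made at high level only in wounded or inflamed epidermis. Of 32 tested genes of this kind 16 rose and 1 fell (Lce1m), at a median of 1.05, beside 8.03% of all genes that rose. The rises fell into 2 groups. Of 11 small proline-rich genes 9 rose, and 6 of the 6 Lce3 genes rose, whereas of 14 Lce1 genes 1 rose (Lce1g, adjusted p = 0.0481) and 1 fell. Lce1m (log2 fold change -2.64, SE 0.8, adjusted p = 0.0361) was not called without BCC mouse 5 or 8 or vismodegib mouse 9.

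The genes Sprr2b, Sprr2d, Sprr2e and Sprr2i lie near each other on chromosome 3, and the 250 bases before their starts are shown because they share a run of letters at nearly the same place. They are plus-strand windows of RefSeq on GRCm38.p6: chr3:92316455-92316704 for Sprr2b, chr3:92338890-92339139 for Sprr2d, chr3:92351893-92352142 for Sprr2e and chr3:92407741-92407990 for Sprr2i. Capitals mark TGANTCA, the letters that AP-1 (Fos and Jun proteins) recognises, which read the same on both strands.
Sprr2b: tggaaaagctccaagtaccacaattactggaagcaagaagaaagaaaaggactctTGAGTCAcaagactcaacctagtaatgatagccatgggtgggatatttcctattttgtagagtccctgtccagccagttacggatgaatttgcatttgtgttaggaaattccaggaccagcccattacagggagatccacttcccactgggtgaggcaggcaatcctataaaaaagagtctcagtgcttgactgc
Sprr2d: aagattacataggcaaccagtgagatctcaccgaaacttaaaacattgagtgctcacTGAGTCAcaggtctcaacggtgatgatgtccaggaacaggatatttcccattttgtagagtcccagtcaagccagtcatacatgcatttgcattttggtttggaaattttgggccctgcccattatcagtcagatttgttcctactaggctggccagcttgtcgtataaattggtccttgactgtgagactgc
Sprr2e: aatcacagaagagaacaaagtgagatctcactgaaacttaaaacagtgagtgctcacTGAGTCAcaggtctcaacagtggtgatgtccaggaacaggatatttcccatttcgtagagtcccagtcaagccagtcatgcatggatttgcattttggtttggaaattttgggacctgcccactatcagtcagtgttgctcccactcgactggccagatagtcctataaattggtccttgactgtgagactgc
Sprr2i: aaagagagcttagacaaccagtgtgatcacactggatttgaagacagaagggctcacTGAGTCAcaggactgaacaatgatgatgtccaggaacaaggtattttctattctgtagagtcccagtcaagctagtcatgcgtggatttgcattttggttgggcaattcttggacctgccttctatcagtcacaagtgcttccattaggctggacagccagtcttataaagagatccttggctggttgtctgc
The match begins 195 bases before the start in Sprr2b and 193 bases before it in the other 3. Of 13 small proline-rich genes in the file that matched the table, 9 held the letters, and Sprr2a1, Sprr2a2, Sprr2a3 and Sprr4 did not. The letters were held by 6.87% of all 27025 promoters of this length and by 5.1% of those of genes tested. They were held by 8.96% of those of genes that rose and by 3.56% of those of genes that fell. They were chosen after the values had been seen, and a match is not a measured binding site.

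The levels of these genes separated the groups widely. Sprr2b stood at 606, 124, 724 and 321 CPM in the vismodegib mice and 0.290, 1.03, 1.21 and 1.2 in the BCC mice (log2 fold change 8.89, SE 0.79, adjusted p = 4.13e-05). Sprr2i stood at 200.2, 46.1, 257 and 122 against 0.406, 0.999, 1.21 and 1.04 (log2 fold change 7.42, SE 0.68, adjusted p = 4.13e-05), and Sprr2d at 1657, 351, 1814 and 888 against 2.72, 10.8, 13.2 and 7.55 (log2 fold change 7.1, SE 0.76, adjusted p = 0.000109). The lowest treated mouse for each was number 6, which still exceeded the highest BCC mouse many times over. Sprr2e ranged over 70.4 to 465 CPM in the vismodegib mice and 1.19 to 4.29 in the BCC mice (log2 fold change 6.45, SE 0.68, adjusted p = 9.47e-05). In laser-treated skin Sprr2b was at 0.476, 1.25 and 3.92 CPM in mice 2, 7 and 11, and the difference between the treatments was called (log2 difference 7.85, adjusted p = 0.000145). Reads of these near-identical genes may be split between copies in counting, and Sprr2a1 and Sprr2a2 carried the same count in every mouse, so that the family is firmer than any one member. Outside the family, Sprr1b ranged over 354 to 776 CPM in the vismodegib mice and 12.4 to 60.6 in the BCC mice (log2 fold change 3.91, adjusted p = 0.0037), Lce3a over 17.3 to 83.5 CPM in the vismodegib mice and 0.191 to 1.59 in the BCC mice (log2 fold change 5.79, adjusted p = 0.00113) and Lce1b over 30.9 to 96.2 CPM in the vismodegib mice and 32.6 to 93.2 in the BCC mice (log2 fold change -0.09, adjusted p = 0.926).

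**Figure D3:**
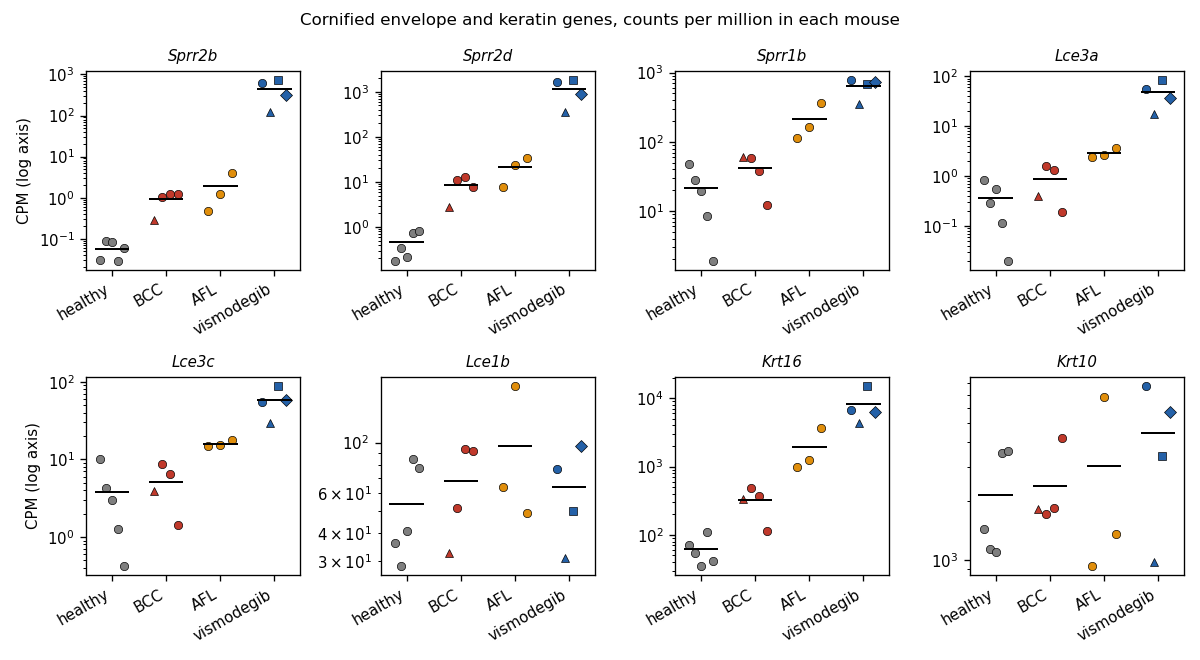
CPM on log axes in each mouse of the 4 groups for cornified envelope genes (Sprr2b, Sprr2d, Sprr1b, Lce3a, Lce3c, Lce1b) and keratins (Krt16, Krt10); black bars are group means, triangles are vismodegib mouse 6 and BCC mouse 3, the square vismodegib mouse 9, the diamond vismodegib mouse 12, and values under 0.02 are drawn at 0.02. The vismodegib mice lie above all BCC mice for the first 4 genes, Lce3c and Krt16, and overlap them for Lce1b and Krt10.

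Keratinocyte genes of wounds rose almost as a whole: 17 of 21 rose, beside 8.03% of all genes, none fell, and the median was 3.16. Many of these rises are counted in other lists too. Sprr2d, Sprr2h and Sprr1b are in the list before, and S100a8 and S100a9 are in the neutrophil list. Hbegf, Ereg and Areg are EGF receptor ligands, Il1a is a listed cytokine and Plau a listed matrix protease. Between 15 and 18 rose when each mouse was left out in turn, and 17 without the growing-hair mice. Krt16, a keratin that interfollicular epidermis makes after injury, stood at 6701, 4353, 15228 and 6312 CPM in the vismodegib mice and 333, 487, 369.5 and 112 in the BCC mice (log2 fold change 4.65, SE 0.62, adjusted p = 0.000361). Its partners Krt6a (7055 to 14387 CPM in the vismodegib mice and 446 to 2070.5 in the BCC mice, log2 fold change 3.16, adjusted p = 0.00371) and Krt6b (6028 to 28407 CPM in the vismodegib mice and 31.9 to 479 in the BCC mice, log2 fold change 5.79, adjusted p = 0.00177) rose too, although reads of these 2 similar genes may be shared. Krt6b was at 5.04 on the log2 scale without vismodegib mouse 9 and at 6.44 without BCC mouse 4. Lcn2, an iron-binding antimicrobial protein, stood at 324, 82, 819 and 260.0 against 7.3, 14, 8.55 and 8.83 CPM (log2 fold change 5.26, SE 0.71, adjusted p = 0.000389) and at a log2 fold change of 4.53 without vismodegib mouse 9. The 2 groups did not overlap for any of these genes.

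The S100a8 and S100a9 proteins, which form calprotectin and are made by neutrophils and by inflamed keratinocytes, rose further in mouse 9 than elsewhere. S100a9 stood at 2852, 1277, 25902 and 2341 CPM against 8.63, 63, 48.4 and 14.2 (log2 fold change 7.91, SE 1.45, adjusted p = 0.0025), and S100a8 at 2449.6, 1083, 23274 and 1759 against 11.5, 64.7, 51.7 and 9.75 (log2 fold change 7.7, SE 1.44, adjusted p = 0.00283). Without mouse 9 their log2 fold changes were 6.04 and 5.71. Saa3, an acute-phase apolipoprotein, stood at 61.6, 14.6, 874 and 59.6 against 0.898, 2.29, 0.808 and 0.300 CPM (log2 fold change 7.87, SE 1.5, adjusted p = 0.0037), 5.41 without vismodegib mouse 9 and 8.56 without BCC mouse 4. Its call was lost under 1 of the 15 other settings. Mouse 9 was the highest treated mouse for each of the 10 largest rises. Defb3, a beta-defensin, stood at 90.4, 33.6, 485 and 57.5 against 0.0869, 1.73, 1.12 and 0.300 CPM (log2 fold change 7.68, SE 1.07, adjusted p = 0.000527). Its log2 fold change was 6.26 without mouse 9 and 8.38 without BCC mouse 4. Csta3, a stefin, stood at 8.74, 4.47, 68.6 and 7.91 against 0.116, 0.265, 0.124 and 0.0545 CPM (log2 fold change 7.3, SE 0.98, adjusted p = 0.000386), and at 5.65 on the log2 scale without mouse 9. Serpinb3d, a protease inhibitor, had 0 counts in BCC skin and 0.376, 0.183, 8.18 and 0.267 CPM in the treated mice. This is at least 59.6-fold more against 3 counts over the group, and at least 12.4-fold more without mouse 9, which held most of its counts. Serpinb3d did not pass the filter on low counts without vismodegib mouse 1 or 9, and its call was lost with age as a covariate.

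Keratinocyte differentiation changed in part. Of 20 genes of differentiated keratinocytes 8 rose (40%, beside 8.03% of all genes) and none fell (median 0.84). The rises numbered 5 without BCC mouse 4, BCC mouse 8 or vismodegib mouse 9. There were 2 rises with age as a covariate and 5 in the fit of the 8 mice or with library size alone. Casp14, a protease of the cornifying layer, stood at 571, 284, 338 and 513 against 132, 94.1, 161 and 75.5 CPM (log2 fold change 1.88, SE 0.34, adjusted p = 0.00226), and Grhl3, a transcription factor of barrier formation and wound closure, at 270.0, 87.7, 115 and 155 against 51.6, 26.3, 31 and 69.3 (log2 fold change 1.82, SE 0.37, adjusted p = 0.00454). Krt10, the main keratin of the spinous layer, overlapped between groups (978 to 7785 CPM in the vismodegib mice and 1722 to 4213 in the BCC mice, log2 fold change 0.89, adjusted p = 0.383). Among 17 basal keratinocyte genes 2 rose (11.8%) and 1 fell (5.88%), beside 8.03% and 9% of all genes. Krt14, the basal keratin whose promoter drives Cre here, stood at 11264, 14243, 31179 and 13082 against 5664, 4085, 3027 and 3464 CPM (log2 fold change 2.1, SE 0.4, adjusted p = 0.00286). Krt14 lost its call under 1 of the 15 other settings. Lamb3, a laminin chain of the basement membrane (log2 fold change -1.0, adjusted p = 0.0222), lost its call without BCC mouse 8 (log2 fold change -0.95) and under 1 of the 15 other settings, and Dsg3, a desmosomal cadherin (log2 fold change 1.12, adjusted p = 0.0433), lost it without BCC mouse 3, 4 or 8 or without vismodegib mouse 1, 9 or 12 (log2 fold changes 1.0 to 1.17) and under 6 of the 15 other settings.

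Genes of neutrophils, short-lived white cells that enter inflamed tissue, rose in 11 of 12 cases (91.7%, beside 8.03% of all genes), at a median of 4.47. Between 9 and 11 rose with each mouse left out in turn. With age as a covariate 4 of the 12 rose. The summed level of the 12 genes was 43.4 to 174 CPM in the BCC mice and 2458 to 49584 in the vismodegib mice. S100a8 and S100a9, which inflamed keratinocytes also make, held most of that sum at both ends of the vismodegib range. Csf3r, the receptor for granulocyte colony-stimulating factor, stood at 45.6, 34.7, 70.7 and 137 CPM in the vismodegib mice and 2.66, 3.79, 2.95 and 3.05 in the BCC mice (log2 fold change 4.53, SE 0.57, adjusted p = 0.000276). Cxcr2, the receptor that draws neutrophils along chemokine gradients, stood at 54.8, 21.7, 73.5 and 78.2 against 1.91, 2.62, 5.29 and 1.99 (log2 fold change 4.27, SE 0.76, adjusted p = 0.00212). Mouse 12 was highest for both, unlike the S100 genes, which were highest in mouse 9. None of the 12 was called different between vismodegib and laser-treated skin, where Csf3r was at 43, 30.2 and 187 CPM (log2 difference -0.27, adjusted p = 0.775).

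Among the chemokines that CXCR2 binds, Cxcl1 and Cxcl5 rose. Cxcl1 stood at 26.8, 6.12, 28.4 and 11.8 against 0.290, 1.68, 1.03 and 0.899 CPM (log2 fold change 4.23, SE 0.85, adjusted p = 0.0042), and Cxcl5 at 9.29, 10.7, 30.5 and 15.6 against 0.290, 0.411, 0.0311 and 0.0817 (log2 fold change 6.32, SE 1.32, adjusted p = 0.00533). Of 30 chemokines and receptors of the list 8 rose and 3 fell (Ccl27a, Ccl1 and Ccl5), at a median of 0.95. The shares were 26.7% and 10%, beside 8.03% and 9% of all genes. There were 5 rises without BCC mouse 3, 4 without BCC mouse 8 or vismodegib mouse 9 and 1 fall without BCC mouse 5. The rises numbered 3 with age as a covariate, 3 in the fit of the 8 mice and 4 with library size alone. Ccl9, a myeloid chemokine, ranged over 51.8 to 184 CPM in the vismodegib mice and 17 to 35.5 in the BCC mice (log2 fold change 2.02, adjusted p = 0.00597). Ccl5, which draws T cells, ranged over 0.531 to 1.29 CPM in the vismodegib mice and 1.59 to 3.61 in the BCC mice (log2 fold change -1.49, adjusted p = 0.0231). Ccl5 lost its call without BCC mouse 5 or without vismodegib mouse 1 or 9 (log2 fold changes -1.4 to -1.17) and under 2 of the 15 other settings.

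Inflammatory cytokines rose in 8 of 17 cases (47.1%, beside 8.03% of all genes), at a median of 2.44 and with no fall. Il17a, a cytokine of Th17 and innate-like lymphocytes that acts on keratinocytes, stood at 1.64, 1.55, 8.87 and 1.76 CPM in the vismodegib mice, while the BCC mice held 3 counts in all. Its level in treated skin was 120 times as high (95% Poisson interval 40.7 to 583, counting error only), or 76.9 times without vismodegib mouse 9, with a fitted log2 fold change of 7.11, 6.08 without vismodegib mouse 9 and 7.96 without BCC mouse 8. Il17f, its paralogue, was not in the list and was singled out after its values had been seen, at 7.04, 3.41, 35.4 and 6.81 against 0.0579, 0.0882, 0.0622 and 0.245 CPM (log2 fold change 6.8, SE 0.86, adjusted p = 0.000278). Without vismodegib mouse 9 the log2 fold change of Il17f was 5.63, and without BCC mouse 8 it was 7.42. Both genes were highest in mouse 9 and present in all 4 treated mice. Both were also above laser-treated skin (log2 difference 6.64, adjusted p = 0.00103 for Il17a and log2 difference 7.46, adjusted p = 0.000371 for Il17f). Il19, an IL-10 family cytokine of keratinocytes, stood at 4.64, 13.7, 59.2 and 6.18 against 0.232, 0.0882, 0.311 and 0.245 CPM (log2 fold change 6.56, SE 0.97, adjusted p = 0.000676, 5.23 without vismodegib mouse 9), and Il33, an alarmin of barrier cells, at 178, 105, 365 and 304 against 5.97, 21.8, 36.7 and 27.8 (log2 fold change 3.37, SE 0.59, adjusted p = 0.00195). Tnf, by contrast, ranged over 3.24 to 6.56 CPM in the vismodegib mice and 2.5 to 7.49 in the BCC mice (log2 fold change -0.06, adjusted p = 0.962).

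**Figure D4:**
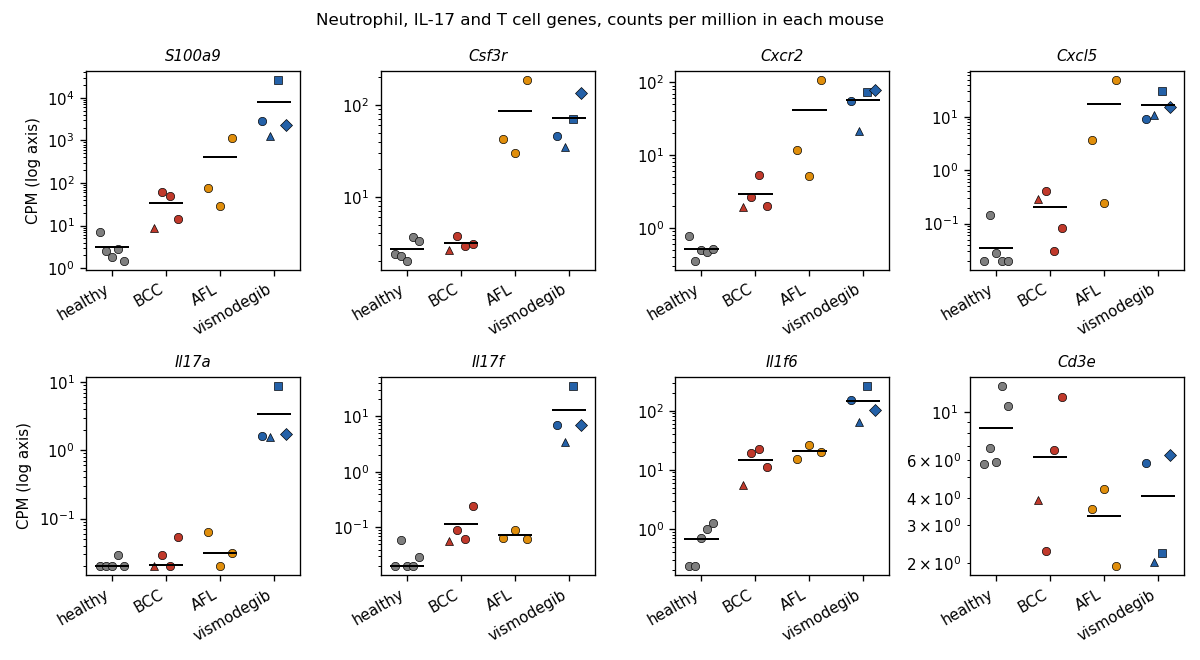
CPM on log axes in each mouse of the 4 groups for neutrophil genes (S100a9, Csf3r, Cxcr2), the chemokine Cxcl5, cytokines (Il17a, Il17f, Il1f6) and the T cell gene Cd3e; black bars are group means, triangles are vismodegib mouse 6 and BCC mouse 3, the square vismodegib mouse 9, the diamond vismodegib mouse 12, and values under 0.02 are drawn at 0.02. The vismodegib mice lie above all BCC mice for every gene but Cd3e, and above all laser-treated mice for S100a9, Il17a, Il17f and Il1f6.

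Lymphocyte genes held few calls. Of 16 T cell genes none rose or fell (median -0.15), and the summed level of the 16 was 98.5 to 219 CPM in the vismodegib mice and 155 to 227 in the BCC mice. Thy1, a surface protein also made by fibroblasts, ranged over 58.3 to 90.6 CPM in the vismodegib mice and 73.9 to 154 in the BCC mice (log2 fold change -0.57, adjusted p = 0.171). Of 16 antigen presentation genes none was called, with Tap1, the peptide transporter, at 69.7 to 119 CPM in the vismodegib mice and 104 to 157 in the BCC mice (log2 fold change -0.52, adjusted p = 0.225). In the list of cytotoxic and NK cell genes 2 of 13 rose (15.4%) and 1 fell (7.69%), beside 8.03% and 9% of all genes. Gzmb, granzyme B, ranged over 2.04 to 16.6 CPM in the vismodegib mice and 1.07 to 2.18 in the BCC mice (log2 fold change 2.19, adjusted p = 0.0167). Gzmb lost its call without vismodegib mouse 9 (log2 fold change 1.29) and under 3 of the 15 other settings. Gzma, granzyme A, was under 0.4 CPM in all 8 mice (log2 fold change 2.79, adjusted p = 0.0456). Gzma lost its call without BCC mouse 3, 4, 5 or 8 or without vismodegib mouse 6, 9 or 12 (log2 fold changes 2.41 to 3.33) and under 8 of the 15 other settings.

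Macrophage genes rose in 7 of 18 cases (38.9%, beside 8.03% of all genes) and fell in 1, at a median of 1.18. The rises numbered 4 with library size alone, 2 with age as a covariate and 3 in the fit of the 8 mice. Fcgr1, a high-affinity antibody receptor of monocytes and macrophages, stood at 10.04, 6.12, 20.1 and 14.8 against 2.03, 3.29, 2.52 and 2.15 CPM (log2 fold change 2.35, SE 0.39, adjusted p = 0.00139). Mertk, a receptor by which macrophages clear dead cells, was the fall, at 8.85, 14.2, 5.04 and 12.3 against 20.04, 24.5, 35 and 30.3 (log2 fold change -1.44, SE 0.28, adjusted p = 0.00315). Cd68, a lysosomal protein of macrophages (log2 fold change 1.11, adjusted p = 0.0126), lost its call under 1 of the 15 other settings. Of 26 interferon-stimulated genes 1 rose (3.85%, beside 8.03% of all genes) and none fell (median 0.31). No gene of the list rose without BCC mouse 4, BCC mouse 8, or vismodegib mouse 1, 9 or 12, and 3 genes rose without vismodegib mouse 6. Xaf1 (log2 fold change -0.77, adjusted p = 0.0502) and Ifi35 (log2 fold change 0.7, adjusted p = 0.0553) were not called, and their values lie in opposite directions.

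The smaller immune lists held few calls by number, but each had a share of rises above the 8.03% of all genes. The shares were 18.75% for regulatory and checkpoint genes, 15.4% for mast cells, 12.5% for Langerhans and dendritic cells and 14.3% for B and plasma cells. Of 16 regulatory and checkpoint genes 3 rose: Pdcd1, Tnfrsf18 and Cd274, which encode PD-1 (log2 fold change 1.6, adjusted p = 0.0338), GITR (log2 fold change 0.82, adjusted p = 0.0374) and PD-L1 (log2 fold change 1.26, adjusted p = 0.0471). Pdcd1 lost its call without BCC mouse 3, 4, 5 or 8 or without vismodegib mouse 9 or 12 (log2 fold changes 1.35 to 1.65) and under 6 of the 15 other settings. Tnfrsf18 lost its call without BCC mouse 4, 5 or 8 or without vismodegib mouse 1 or 9 (log2 fold changes 0.48 to 0.86) and under 7 of the 15 other settings. Cd274 lost its call without BCC mouse 3, 4, 5 or 8 or without vismodegib mouse 1 or 12 (log2 fold changes 0.87 to 1.4) and under 9 of the 15 other settings. Of 13 mast cell genes 2 rose. Tpsab1, a tryptase, ranged over 1.34 to 1.96 CPM in the vismodegib mice and 0.411 to 0.777 in the BCC mice (log2 fold change 1.51, SE 0.29, adjusted p = 0.00292), and Hdc, which makes histamine (log2 fold change 2.15, adjusted p = 0.028), was lost without BCC mouse 3, 4 or 8 or without vismodegib mouse 1, 9 or 12 (log2 fold changes 1.96 to 2.21) and under 2 of the 15 other settings. Of 16 Langerhans and dendritic cell genes 2 rose, Siglech (log2 fold change 2.08, adjusted p = 0.0251, lost without BCC mouse 8 or without vismodegib mouse 9 or 12 (log2 fold changes 1.81 to 2.04) and under 3 of the 15 other settings) and Clec10a (log2 fold change 1.06, adjusted p = 0.0408, lost without BCC mouse 3, 4, 5 or 8 or without vismodegib mouse 9 or 12 (log2 fold changes 0.83 to 1.18) and under 5 of the 15 other settings). Of 7 B and plasma cell genes 1 rose, Xbp1, which other secretory cells also use (log2 fold change 0.61, adjusted p = 0.0163, lost without BCC mouse 4 or 8 (log2 fold changes 0.55 to 0.57) and under 4 of the 15 other settings).

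Of 23 genes of cholesterol synthesis 11 rose (47.8%, beside 8.03% of all genes) and none fell, at a median of 0.82. There were 16 rises without the growing-hair mice, 5 without BCC mouse 4, 7 without BCC mouse 8, 6 without vismodegib mouse 1, 3 when libraries were scaled by their total alone, and 2 with age as a covariate or in the fit of the 8 mice. Ebp, a sterol isomerase, stood at 135, 106, 138 and 129.7 against 82.3, 56.6, 56.3 and 59.5 CPM (log2 fold change 1.0, SE 0.17, adjusted p = 0.00162). Sqle, squalene epoxidase (203 to 456 CPM in the vismodegib mice and 131 to 185 in the BCC mice, log2 fold change 1.09, adjusted p = 0.00691), and Sc5d, a late desaturase (40.1 to 73.9 CPM in the vismodegib mice and 23.1 to 29 in the BCC mice, log2 fold change 1.02, adjusted p = 0.00696), rose too. The call of Sqle was lost under 3 of the 15 other settings. Sc5d lost its call under 1 of the 15 other settings. Of 19 sebaceous gland genes 4 rose (21.1%, beside 8.03% of all genes), with 1 when age was a covariate. The rises numbered 8 without vismodegib mouse 6, and 2 without BCC mouse 4, BCC mouse 8 or vismodegib mouse 1. Elovl3, a fatty acid elongase of the gland, stood at 757, 121, 502 and 514 against 124, 102, 89.1 and 98.5 CPM (log2 fold change 2.19, SE 0.46, adjusted p = 0.00514), with vismodegib mouse 6 within the BCC range. Plin2, a lipid droplet protein (log2 fold change 1.23, adjusted p = 0.00907), lost its call under 3 of the 15 other settings, and Dgat2l6, a wax synthase relative (log2 fold change 2.02, adjusted p = 0.0275), lost its call without BCC mouse 3, 4 or 8 or without vismodegib mouse 1 or 9 (log2 fold changes 1.73 to 2.05) and under 4 of the 15 other settings.

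Ligands of the EGF receptor family, which keratinocytes release in wound repair, rose in 5 of 13 listed ligands and receptors (Nrg1, Hbegf, Epgn, Ereg and Areg) while 1 receptor fell. The rises were 38.5% of the list, beside 8.03% of all genes. Nrg1 stood at 20.01, 11.7, 29.4 and 14.9 against 2.46, 1.68, 1.9 and 1.8 CPM (log2 fold change 3.28, SE 0.59, adjusted p = 0.00229), and Hbegf at 62, 29.5, 36.9 and 33.2 against 15.7, 10.9, 9.98 and 9.48 (log2 fold change 1.81, SE 0.36, adjusted p = 0.00415). Erbb4, the receptor that fell, was under 0.2 CPM in every treated mouse (0.171, 0.0609, 0.0531 and 0.110 against 0.203, 0.999, 3.26 and 0.899, log2 fold change -3.68, SE 0.82, adjusted p = 0.00754). Erbb4 lost its call under 1 of the 15 other settings and was at -2.77 on the log2 scale without BCC mouse 5.

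Of 16 genes of the unfolded protein response and oxidative stress 8 rose (50%, beside 8.03% of all genes), at a median log2 fold change of 0.65. The rises numbered 4 without BCC mouse 4, BCC mouse 5, vismodegib mouse 9 or vismodegib mouse 12. They numbered 5 without each of the other mice but vismodegib mouse 6. The count was 3 with age as a covariate, 3 in the fit of the 8 mice and 3 with library size alone. Asns, asparagine synthetase, an ATF4 target, stood at 89.6, 76.6, 86.5 and 88.1 against 44.5, 25.6, 34.3 and 28.7 CPM (log2 fold change 1.36, SE 0.22, adjusted p = 0.00122), and Srxn1, an antioxidant enzyme, at 78.4, 48.4, 60.8 and 62.4 against 37, 22, 26.8 and 24.9 (log2 fold change 1.18, SE 0.21, adjusted p = 0.0023). Slc7a11, the cystine importer, moved more, at 125, 43.1, 484 and 85.9 against 9.47, 3.64, 5.01 and 2.32 (log2 fold change 5.17, SE 1.2, adjusted p = 0.0107, 4.04 without vismodegib mouse 9). Of 13 heat shock genes 4 rose (30.8%, beside 8.03% of all genes), at a median of 0.69. The count was 2 without BCC mouse 5 or without the growing-hair mice, 1 without BCC mouse 8 and 1 with library size alone. It was 0 with age as a covariate or in the fit of the 8 mice. The mitochondrial chaperone Hspd1 ranged over 364 to 816 CPM in the vismodegib mice and 164 to 286 in the BCC mice (log2 fold change 1.28, adjusted p = 0.00696). Hspd1 lost its call under 2 of the 15 other settings. Of 21 genes of xenobiotic metabolism, the enzymes that clear foreign compounds, 2 rose. That share, 9.52%, is near the 8.03% of all genes and does not set the list apart. Gsta1, a glutathione transferase, stood at 12, 5.54, 84.7 and 9.26 against 1.71, 1.97, 3.05 and 2.97 CPM (log2 fold change 3.52, SE 0.72, adjusted p = 0.00471), and at 1.9 on the log2 scale without vismodegib mouse 9, a call lost under 1 of the 15 other settings. Gsta4 (log2 fold change 2.14, adjusted p = 0.0306), a related gene, lost its call without BCC mouse 3, 4, 5 or 8 or without vismodegib mouse 9 (log2 fold changes 0.79 to 2.33) and under 5 of the 15 other settings.

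Few cell death genes were called, and the calls went in both directions. Bmf (7.85, 9.16, 6.9 and 9.37 against 20.9, 19.6, 20.5 and 25.4 CPM, log2 fold change -1.37, SE 0.23, adjusted p = 0.00154) and Bbc3 (4.88, 4.81, 3.29 and 5.6 against 13.1, 9.58, 8.18 and 15.1 CPM, log2 fold change -1.31, SE 0.28, adjusted p = 0.00588), 2 pro-apoptotic BH3-only genes, fell. So did Bcl2, an anti-apoptotic gene and known GLI target (13.7 to 19 CPM in the vismodegib mice and 19.5 to 58.7 in the BCC mice, log2 fold change -1.25, adjusted p = 0.0135). Bcl2 lost its call under 2 of the 15 other settings. Birc3, an inhibitor of apoptosis, rose (log2 fold change 1.07, adjusted p = 0.0231). Birc3 lost its call without BCC mouse 4 or 8 or without vismodegib mouse 1 (log2 fold changes 0.92 to 1.03) and under 4 of the 15 other settings. Of 18 apoptosis regulators 3 fell (16.7%) and 1 rose (5.56%) in all. Of 19 p53 targets 2 fell (Bbc3 and Trp53inp1) and 2 rose (Pmaip1 and Aen), 10.5% each way. Over all genes 9% fell and 8.03% rose, so these shares set neither list clearly apart. The counts of these 2 lists moved between 0 and 4 when single mice were left out. Of 24 cell cycle genes none was called (median 0.77), with Ccnb1 at 62.5 to 112 CPM in the vismodegib mice and 18.7 to 64.8 in the BCC mice (log2 fold change 1.14, adjusted p = 0.0777) and Cdk1 at 47.7 to 171 CPM in the vismodegib mice and 17.7 to 54.5 in the BCC mice (log2 fold change 1.28, adjusted p = 0.0874). Without the growing-hair mice 4 of the 24 rose. Of 17 immediate early genes 3 rose (17.6%, beside 8.03% of all genes), Fosl1, Junb and Ier3 (1 when any one of 6 mice was left out).

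Other tissues in the sample showed few calls by number. None of 18 adipocyte genes, 20 adult skeletal muscle genes or 17 endothelial genes was called, at medians of 0.36, 0.61 and 0.35. Myh1, a fast myosin, ranged over 134 to 2789 CPM in the vismodegib mice and 99.96 to 572 in the BCC mice (log2 fold change 1.82, adjusted p = 0.208). Of 15 genes of embryonic and regenerating muscle 3 rose (20%, beside 8.03% of all genes), Myh3, Myh8 and Actc1. None of the list rose without BCC mouse 3, BCC mouse 4, BCC mouse 8 or vismodegib mouse 1. The number was 1 without BCC mouse 5 or vismodegib mouse 12, and 8 without vismodegib mouse 6. Without vismodegib mouse 12 the log2 fold change of Myh3 went from 3.48 to 2.24 and that of Actc1 from 3.91 to 1.41. Of 14 melanocyte genes 1 rose (7.14%, near the 8.03% of all genes), and 7 rose without BCC mouse 3. The 1 was Rab38, a regulator of pigment granules that other cells also make (57.4 to 119 CPM in the vismodegib mice and 27.9 to 46.8 in the BCC mice, log2 fold change 1.23, adjusted p = 0.0106). The summed level of the 14 was 134 to 1366 CPM in the vismodegib mice and 88.6 to 1629.5 in the BCC mice, highest in the mice with growing hair. Of 17 Notch pathway genes 2 fell (11.8%, near the 9% of all genes), Lfng (log2 fold change -1.0, adjusted p = 0.0123) and Maml2 (log2 fold change -1.06, adjusted p = 0.0272). The falls numbered 4 without vismodegib mouse 6 or 12, and 1 without BCC mouse 4, vismodegib mouse 1 or vismodegib mouse 9. Lfng lost its call under 2 of the 15 other settings. Maml2 lost its call without BCC mouse 4 or 5 or without vismodegib mouse 1 or 9 (log2 fold changes -0.99 to -0.87) and under 5 of the 15 other settings.

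Vismodegib skin was then set beside laser-treated skin, the other treatment of the study, in the contrast that tests the difference between both changes. Of all genes 2.46% were higher and 6.69% lower after vismodegib than after the laser. Of interferon-stimulated genes 24 of 26 were lower after vismodegib than after the laser, at a median of -3.05. Against BCC skin, 25 of the 26 rose after the laser (median 3.25) and 1 rose after vismodegib (median 0.31). Mx1, an antiviral GTPase, was at 3.93, 5.17, 1.86 and 6.48 CPM in the vismodegib mice and 59.1, 53.5 and 51 in laser-treated mice 2, 7 and 11 (log2 difference -3.63, adjusted p = 0.000145). Of 22 matrix genes 15 were lower, of 18 macrophage genes 10 were lower, and of 20 matrix proteases and inhibitors 10 were lower. Against BCC skin, 5, 16 and 11 genes of these 3 lists rose after the laser and none fell. After vismodegib 1, 7 and 5 rose, and 7, 1 and 2 fell. Of 15 genes of embryonic and regenerating muscle 7 were lower, among them Myh3, embryonic myosin, at 1.74, 0, 0.212 and 4.07 against 44.1, 238 and 98.5 CPM (log2 difference -6.33, adjusted p = 0.00166). Against BCC skin, 12 of the 15 rose after the laser and 3 after vismodegib. Genes of the epidermis were among the higher ones. Of 32 small proline-rich and late cornified envelope genes 9 were higher and none lower, of 21 wound keratinocyte genes 7 were higher and 2 lower, and of 23 cholesterol synthesis genes 9 were higher and 1 lower.

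**Figure D5:**
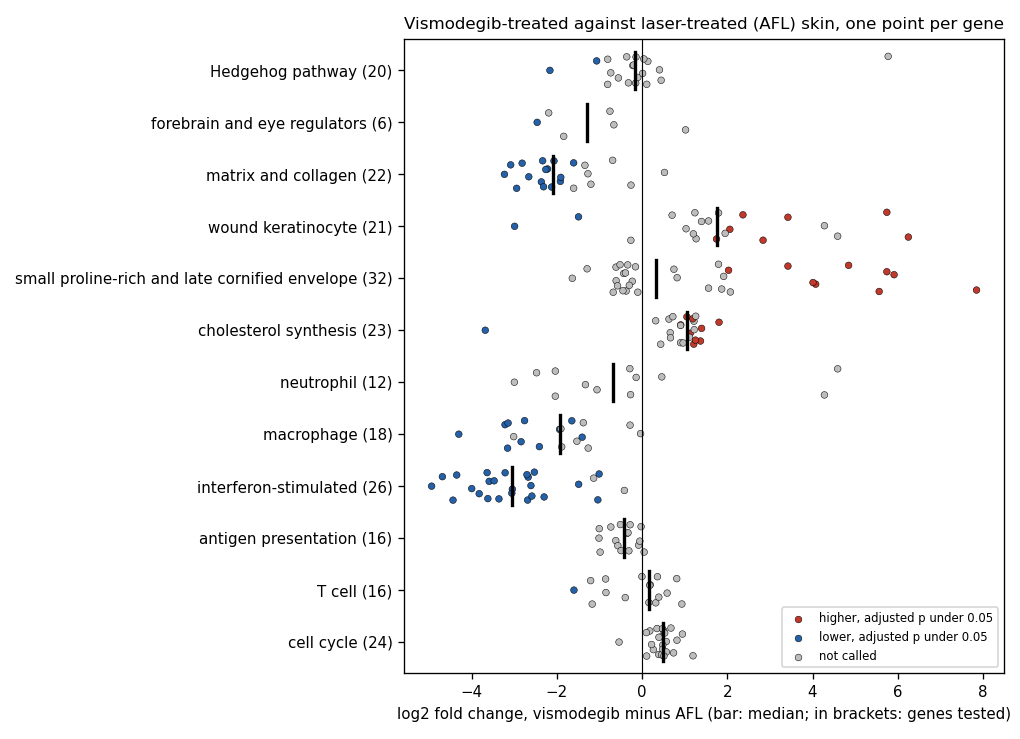
Log2 fold change of each tested gene (1 point per gene) in vismodegib skin against laser-treated skin, by gene list, with a bar at the median of each list and the number of genes tested in brackets. Of the interferon-stimulated list 24 of 26 genes are lower after vismodegib, and the neutrophil and cell cycle lists hold no called gene.

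Against healthy skin 7.57% of all genes were higher and 4.07% lower in treated skin. Of the 1418 genes that fell, 336 were also below healthy skin, 7 were above it, and 1075 were not called against it. Of the 1266 that rose, 784 were also above healthy skin and 482 were not called, with none below. The healthy mice were younger than the treated ones and their growing-hair genes had a mean log2 CPM of 3.3 to 8.8, against 0.0 to 7.7 in the treated mice, so age, hair phase and induction cannot be told apart in this contrast.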

How the data were processed

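Whole-skin mRNA of 16 mice (19 libraries) was selected with oligo-dT and sequenced with a directional kit, per the labels' protocols. Per the submitters' processing notes, Bowtie2, RSEM and GRCm39 were used by the authors to make the deposited table of expected counts per gene. No source used here gives their versions or the strand setting. The deposited expected counts (3.42% of values not whole) were rounded, libraries of 1 mouse were summed, and 0 columns were left unmapped. Of 18521 genes, 15760 passed edgeR's filterByExpr. All 16 mice were fitted without covariates by edgeR's quasi-likelihood test (edgeR 4.0.16, limma 3.58.1, R 4.3.3) with TMM scaling and Benjamini-Hochberg adjustment over all tested genes, and every adjusted p in the text comes from this fit. CPM are TMM-scaled. P-values measure the spread between mice, and intervals on counts cover counting error only. The script was tested on simulated data.

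The members and gene lists were chosen with earlier results of these data known. Of 826 list symbols 814 were in the file and 784 were tested. Named genes are Trp53, the Hedgehog pathway, the 10 largest rises and 10 largest falls (adjusted p under 0.05, at least 1 CPM, no overlap, no clone name), and the 3 members of each list with the smallest p, or 2 where none was called. Other named genes were chosen after their values were seen. Alternatives were DESeq2 1.42.0, limma voom, other scalings and filters, covariates, a replicate block, and leaving out each mouse. Age and days since induction were covariates in fits of the induced mice only. The fit without both growing-hair mice was added after the data had been seen. Results for some named genes are not reported here.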

Additional observations from a re-analysis of the deposited data

Results flagged for a closer look

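Within a group of 4 mice, 1 mouse stood far from the other 3 in 17 of 288 gene and group combinations (5.9%), by Dixon's test at its 95% critical value on log2(CPM + 1), where chance alone gives about 1 in 20. None was examined for a cause.

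Vismodegib mouse 9 stood apart for 5 genes. It held 16.1 CPM of the co-receptor gene Boc, below the other treated mice at 39.2 to 41.2. It was above them for Hspd1 (816 CPM, others 364 to 402), Il17a (8.87, others 1.55 to 1.76), the skin protease Klk7 (1506, others 994 to 1017) and Serpinb3d (8.18, others 0.183 to 0.376). Vismodegib mouse 12 was the high mouse for Ccl5 (1.29 CPM, others 0.531 to 0.615), Cdon (33.2, others 18.6 to 20.6) and Fam163b (2.14, others 0.444 to 0.584). Vismodegib mouse 1 was high for Ncam1 (17.04 CPM, others 9.45 to 10.2).

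BCC mouse 3 was high for Ebp (82.3 CPM, others 56.3 to 59.5), Lrig1 (588, others 523 to 531) and Rab38 (46.8, others 27.9 to 30.5), and low for Sprr2b (0.290, others 1.03 to 1.21). BCC mouse 5 was low for Cspg4 (114 CPM, others 260.0 to 280.1) and high for Gpr161 (45.0, others 32.7 to 34.3) and for the interferon-stimulated gene Xaf1 (51.9, others 34 to 34.5). BCC mouse 8 was low for the antioxidant gene Nqo1 (10.8 CPM, others 13.3 to 13.5).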

How the results depend on the processing

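The 1266 rises and 1418 falls became 306 and 549 with age as a covariate and 701 and 834 with days since induction, both in fits without the healthy mice. They became 395 and 589 in a fit of only the 8 mice, and 440 and 2164 with library size alone. Leaving out each mouse gave 524 to 1707 rises and 963 to 1711 falls. The other settings moved neither count by more than 1.5 times; DESeq2 gave 1694 and 1977. Of 149 named genes that were called, 62 lost the call under at least 1 setting and 82 kept it under all 23. The other 5 (Il17c, Zscan10, Opn4, Barhl2 and Gckr) kept it wherever they passed the filter on low counts. None of the called genes reversed. Replicate numbers do not pair the mice (correlations of same-numbered deviations -0.25, -0.38, 0.35 and 0.35), and with them as a replicate block there were 910 rises and 1265 falls, 76.5% of the calls being kept. The cause of these shifts was not tested. Genes with few counts, such as Opn4, Barhl2 and Il17a, are limited by depth.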

Other observations

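Gene families, some of which share members with the lists, chosen after the values had been seen and so given as counts without a test, showed further groups. Of 43 collagen genes tested 29 fell and none rose (median log2 fold change -1.75, beside 0.05 over all genes, where 9% fell). They include collagens of cartilage, such as Col2a1 (0.785, 1.4, 0.425 and 0.692 CPM in vismodegib mice 1, 6, 9 and 12 and 30.8, 17, 20.8 and 26.2 in BCC mice 3, 4, 5 and 8, log2 fold change -4.83, SE 0.59, adjusted p = 0.000207), and Col7a1, the anchoring fibril collagen under the epidermis (107, 72.5, 49.4 and 104 against 248, 356, 381 and 321 CPM, log2 fold change -1.97, SE 0.3, adjusted p = 0.00083). The groups did not overlap for either gene. Of 19 ADAMTS proteases, which cut matrix proteins, 7 fell, of 12 Chst sulfotransferases 5 fell, and of 16 Wnt ligands 4 fell (Wnt2b, Wnt6, Wnt7a and Wnt7b), with no rise in these families. Of 71 potassium channel genes 14 fell and 2 rose.

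Families of the upper epidermis and of innate defence held rises. Of 12 kallikreins, serine proteases of the shedding skin surface, 9 rose and none fell (median 1.75). Klk9 stood at 261, 77.2, 146 and 198 against 20.5, 21.3, 28 and 24.8 CPM (log2 fold change 2.85, SE 0.44, adjusted p = 0.000879), and Klk13 at 67.6, 41.5, 201 and 66.1 against 10.02, 12.3, 5.29 and 1.83 (log2 fold change 3.68, SE 0.69, adjusted p = 0.00265, 3.0 without vismodegib mouse 9). Every treated mouse was above every BCC mouse for both. All 5 beta-defensins tested rose, of 18 in the file, as did 5 of 6 stefins and 8 of 10 genes of the interleukin 1 family. Over all genes 8.03% rose. A gene can pass the filter on low counts through the treated mice alone, which favours rises among genes that are low in BCC skin. It can also pass through the BCC mice alone, which favours falls among genes that are low in treated skin. Defb14 lost its call without BCC mouse 8 or without vismodegib mouse 9 (log2 fold changes 1.81 to 2.48) and under 2 other settings. Stefins and clade B serpins (7 of 21 rose) have near-identical copies between which reads may be split. Of 38 proteasome genes 15 rose and none fell (median 0.86), while of 76 ribosomal protein genes 1 rose, at a similar median of 0.84.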
